A study of Danio rerio with 4 samples.

Results

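The ATF4 amino acid stress response genes described here are atf4a, atf4b, atf5a, atf5b, ddit3, asns, chac1, trib3, sesn2 and cebpg. They were chosen by symbol, ignoring case, from the 32379 gene rows of 4 RNA-seq libraries of zebrafish embryos. Of the 10 symbols sought, 9 had a row, and all 9 passed the filter on low counts together with 19908 other genes. The identifier paired with atf4a had no row, so atf4a was not analysed here. One group was made up of AB-strain embryos that received the srsf5a morpholino, and the other of AB-strain embryos that received a control morpholino. The srsf5a morpholino is an antisense oligomer against RNA from the gene of the splicing factor Srsf5a. Each egg was given 3 ng at the 1-cell stage, and whole embryos were taken at 48 hours post fertilization, with 80 embryos per condition and 2 libraries per group. The series title asks about RNAs that morpholinos affect inadvertently, and the comparison here is which of these genes differed in level between both groups.

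ATF4 is a basic leucine zipper (bZIP) transcription factor of the integrated stress response. When amino acids are scarce or another stress activates an eIF2 kinase, general translation falls while translation of ATF4 increases, and ATF4 then activates genes of amino acid synthesis, uptake and redox balance, often as a dimer with C/EBP proteins. Much of this control of ATF4 lies in translation and protein stability, which read counts do not measure. These roles are known mainly from mammals. Zebrafish have a and b copies of ATF4 and ATF5.

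Gene counts totalled 22739821 and 23950082 in srsf5a-morpholino replicates 1 and 2, and 15139525 and 36240893 in control replicates 1 and 2. The 9 genes had between 129 and 10916 counts in a library, so none was near the limit of 3 counts, at most 0.198 CPM. Levels are given in CPM (counts per 1e6 gene counts) after TMM scaling of the library totals. CPM is not divided by transcript length, so levels are compared between libraries and not between genes; a high mean CPM serves elsewhere only to pick which genes of a list are named. The targeted gene srsf5a had 335 and 368 CPM in the srsf5a-morpholino libraries and 335 and 286 CPM in the control libraries (adjusted p = 0.424), a total level that does not measure a block of splicing or translation. Of 26 whole-embryo tissue markers sought, 19 had a row and none was at 0 in any library. Their summed level, most of it from the epidermal gene krt4 and the muscle gene myhz1.1, was 33603 to 34111 CPM in the srsf5a-morpholino libraries and 33952 to 37433 CPM in the control libraries. Among these markers 0 rose in embryos given the srsf5a morpholino and 2 fell, the neuronal gene GAD2 (log2 fold change -0.71) and the liver gene tfa (-1.04). Over all 19917 genes tested, edgeR called 242 higher and 153 lower. The calls of GAD2 and tfa ended without control replicate 2 (-0.65 and -0.84), a setting in which few genes of any kind were called. DESeq2 called 2 markers higher, the lens gene CRYAA (0.89 in edgeR) and the leukocyte gene lyz (0.57), and 4 lower. Of the 17407 genes with an adjusted p, DESeq2 called 956 in either direction, 494 of them higher. The other neural markers, none of which passed in edgeR, were ELAVL3 (-0.43), NEUROD1 (-0.58) and SOX2 (-0.25), so all 4 lay below 0. Besides GAD2 and tfa, DESeq2 called ELAVL3 (adjusted p = 0.0348) and NEUROD1 (adjusted p = 0.00342) lower. The other liver or yolk genes of the list, apoa2 (-0.0035) and fabp10a (-0.12, at a mean of 0.767 CPM), did not pass in edgeR. CRYAA, lyz, ELAVL3, NEUROD1, SOX2, apoa2 and fabp10a were named with their values known. The part of tissue composition in the results was not tested. In whole embryos a change in the number of cells of a type and a change in RNA per cell cannot be told apart.

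asns and atf4b passed the test, 2 of the 9 genes, and both were higher with the srsf5a morpholino. A call is a Benjamini-Hochberg adjusted p under 0.05 in edgeR's quasi-likelihood test over all 19917 genes tested, of which 1.98% were called in either direction and 1.22% as higher. In 8 of the 9 genes both srsf5a-morpholino libraries lay above both control libraries, as they did for 26.1% of all genes tested. The same 8 had an unadjusted p under 0.05, against 10.5% of all genes tested with such a p and a higher level. These genes and the lists below were chosen with earlier results of these data known. Shares set beside those over all genes therefore describe them and are no test. The median log2 fold change, srsf5a morpholino over control, was 0.47 over the 9 genes and 0.00 over all genes tested. Values given with ± are log2 fold changes and their standard errors (SE) in the edgeR fit. trib3 stood apart, at nearly the same level in all 4 libraries.

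**Figure D1:**
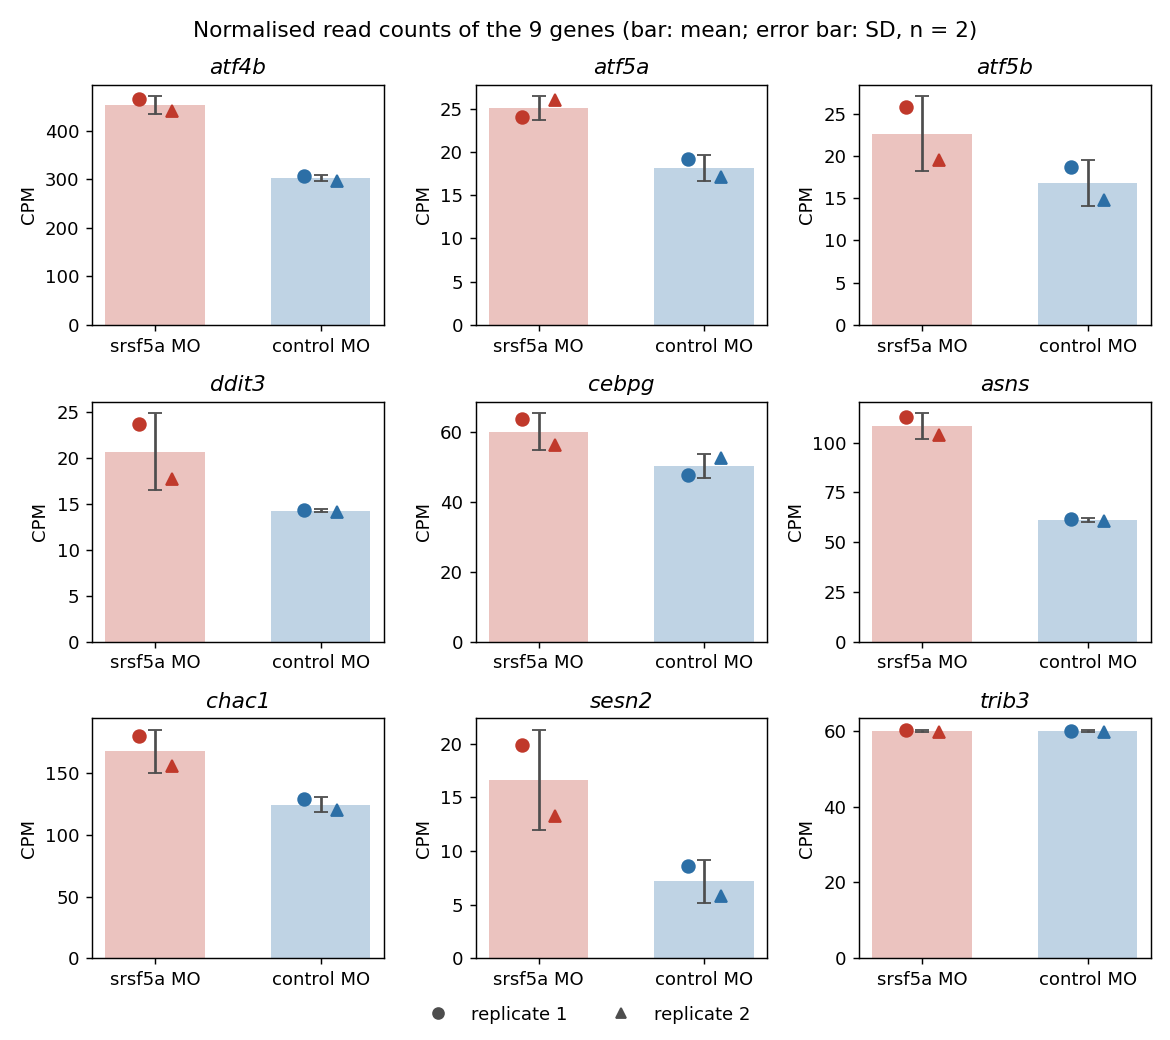
Level of each gene in CPM (y axis, linear, from 0) in srsf5a-morpholino (red) and control (blue) embryos; bars are means, error bars SD (n = 2) and points libraries. The red points lie above the blue points in every panel except trib3, where all 4 libraries lie between 59.6 and 60.1 CPM.

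Of the 5 transcription factor genes measured, atf4b alone passed the test. atf4b (ENSDARG00000038141), which encodes one of the zebrafish copies of ATF4, had 466 and 440 CPM in libraries of the srsf5a-morpholino group and 307 and 298 CPM in the control libraries. The groups did not overlap, and the lowest srsf5a-morpholino library was 1.44 times the highest control library. The log2 fold change was 0.59 ± 0.09 (SE), a 1.50-fold rise with a 95% confidence interval of 0.37 to 0.80 on the log2 scale (adjusted p = 0.0356).

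atf5a (ENSDARG00000068096) and atf5b (ENSDARG00000077785) encode copies of ATF5, a bZIP factor related to ATF4 whose mammalian counterpart is likewise regulated in translation under stress. atf5a had 24.1 and 26.0 CPM in the srsf5a-morpholino libraries, against 19.2 and 17.1 CPM in the control libraries. atf5b had 25.8 and 19.5 CPM in the srsf5a-morpholino libraries, against 18.7 and 14.8 CPM in the control libraries. Neither passed the test: the log2 fold change was 0.47 ± 0.12 for atf5a (adjusted p = 0.0945) and 0.45 ± 0.18 for atf5b (adjusted p = 0.218). The separation was narrow in atf5b, where the lower srsf5a-morpholino library exceeded the higher control library 1.04-fold. Replicates within a group differed more than that, 1.32-fold with the srsf5a morpholino and 1.26-fold with the control, and replicate 1 was the higher in both. With the replicate number added to the edgeR model, atf5b had 0.43 ± 0.12 (adjusted p = 0.0602).

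ddit3 (ENSDARG00000059836) encodes CHOP, a C/EBP-family factor that promotes cell death under prolonged stress. It had 23.6 and 17.7 CPM in the srsf5a-morpholino libraries, against 14.4 and 14.1 CPM in the control libraries. Replicate 1 was the high library, 1.33 times replicate 2, while the control libraries differed 1.02-fold. The log2 fold change of 0.54 ± 0.16 did not pass (adjusted p = 0.126), and its 95% confidence interval was 0.16 to 0.92. cebpg (ENSDARG00000036073) encodes C/EBP gamma, a dimer partner of ATF4. Its levels were 63.7 and 56.2 CPM in the srsf5a-morpholino libraries and 47.7 and 52.5 CPM in the control libraries, a log2 fold change of 0.26 ± 0.11 (adjusted p = 0.241).

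Among the effectors, asns (ENSDARG00000016375), which encodes asparagine synthetase, the enzyme that makes asparagine from aspartate and glutamine, had the lowest p of the 9 genes. It had 113 and 104 CPM in the srsf5a-morpholino libraries and 61.7 and 60.5 CPM in the control libraries. The lower srsf5a-morpholino library was 1.68 times the higher control library, the widest separation among the 9 genes, while replicates differed 1.09-fold with the srsf5a morpholino and 1.02-fold with the control. The rise was 1.77-fold (log2 fold change 0.83 ± 0.09, 95% confidence interval 0.60 to 1.05, adjusted p = 0.0189), and 96.4% of the genes tested had a smaller log2 fold change.

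chac1 (ENSDARG00000070426) encodes an enzyme that breaks down glutathione and is induced through ATF4 in mammals. It had 180 and 156 CPM in the srsf5a-morpholino libraries, against 129 and 120 CPM in the control libraries. The groups were 1.21-fold apart at their nearest libraries, and the log2 fold change of 0.43 ± 0.11 did not pass (adjusted p = 0.0881).

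sesn2 (ENSDARG00000070012) encodes Sestrin 2, a leucine sensor that restrains the growth kinase complex mTORC1 and is induced in mammals by p53 as well as by ATF4. It had 19.9 and 13.3 CPM in the srsf5a-morpholino libraries, against 8.62 and 5.78 CPM in the control libraries. Its log2 fold change of 1.24 ± 0.26 was the largest of the 9 genes, a 2.36-fold difference, but it missed the threshold (adjusted p = 0.0590), with a 95% confidence interval of 0.64 to 1.84. Replicate 1 stood 1.50 times replicate 2 with the srsf5a morpholino and 1.49 times replicate 2 with the control. Each spread was nearly as wide as the 1.54-fold gap between the nearest libraries of both groups, but replicate 1 was the higher in both. With the replicate number added to the edgeR model, sesn2 had 1.20 ± 0.14 (adjusted p = 0.00233). That model called 1582 of the 19917 genes tested, and the labels do not say that the numbers pair libraries.

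trib3 (ENSDARG00000016200) encodes Tribbles 3, a pseudokinase that is a target of ATF4 and CHOP and dampens their activity in mammals. It had 60.1 and 59.6 CPM in the srsf5a-morpholino libraries, against 60.0 and 59.6 CPM in the control libraries. The groups overlapped, with a log2 fold change of 0.00 ± 0.09 (adjusted p = 0.998). Its 95% confidence interval of -0.21 to 0.21 contains neither the estimate for atf4b nor that for asns, although the difference between genes was not itself tested. Per 100 atf4b counts of the same library, trib3 had 12.9 and 13.5 counts in the srsf5a-morpholino libraries and 19.6 and 20.0 counts in the control libraries. By the same measure asns had 24.2 and 23.5 counts in the srsf5a-morpholino libraries and 20.1 and 20.3 counts in the control libraries. A fall by this measure was not particular to trib3. chac1 had 38.6 and 35.3 counts with the srsf5a morpholino and 42.0 and 40.4 with the control. cebpg had 13.7 and 12.8 against 15.6 and 17.6. sesn2 rose, with 4.27 and 3.02 against 2.81 and 1.94, and the groups overlapped for atf5a, atf5b and ddit3.

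**Figure D2:**
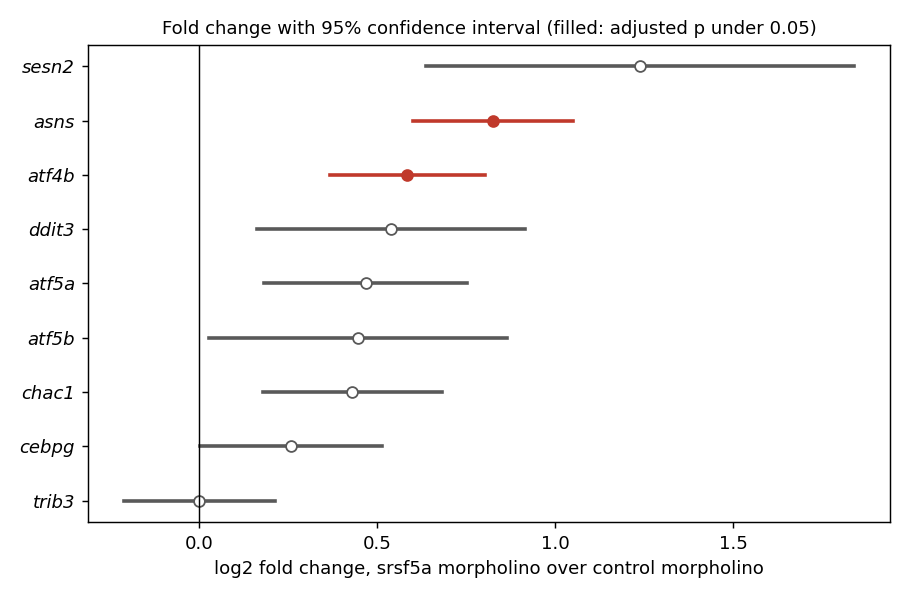
Log2 fold change, srsf5a morpholino over control (x axis), of the 9 genes, with 95% confidence intervals as lines; filled red points passed an adjusted p of 0.05 and open points did not. All intervals except that of trib3 lie above 0, and that of cebpg only just does.

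The count of calls depended on the test and on the libraries. DESeq2 called 4 of the 9 genes, all higher, where 2.84% of the 17407 genes with an adjusted p were higher: asns (adjusted p = 6.20e-08), atf4b (1.64e-05), sesn2 (7.76e-04) and chac1 (0.0223). In the authors' deposited table an adjusted p under 0.05 was given for 4 of the 9 genes, where 3.14% of the 16425 genes with an adjusted p in that table were higher. The log2 fold changes in the authors' deposited table were 0.76 for asns (adjusted p = 3.05e-08), 0.55 for atf4b (9.25e-06), 0.87 for sesn2 (8.55e-04) and 0.39 for chac1 (0.0201). Both analyses start from the same 4 libraries. For sesn2, DESeq2 here gave 1.22 (SE 0.28) where the authors had 0.87 (SE 0.20), although the mean normalized counts matched. The cause of this difference in size was not tested.

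Leaving out control replicate 2, the deepest library, ended both edgeR calls, although the log2 fold changes were 0.81 for asns (adjusted p = 0.101) and 0.56 for atf4b (adjusted p = 0.220), and only 0.152% of all genes were then called as higher. Without control replicate 1, atf4b lost its call (0.60, adjusted p = 0.138), asns kept it and sesn2 gained one (1.52, adjusted p = 0.0385), where 0.648% of all genes were called as higher. Without srsf5a-morpholino replicate 1, the calls were asns, atf4b and sesn2 (0.92, adjusted p = 0.0312), where 3.11% of all genes were called as higher. Without srsf5a-morpholino replicate 2 they were 6 of 9, where 3.43% of all genes were called as higher: asns, atf4b, sesn2 (1.50), chac1 (0.53), ddit3 (0.73) and atf5b (0.63). In that setting the remaining srsf5a-morpholino library was the one with the higher level of 8 of the 9 genes, as it was for 50.6% of all genes tested. Among the lists described below, the same held for 19 of 21 endoplasmic reticulum stress genes and 16 of 22 other ATF4 targets. In the eIF2 list it held for 4 of 13. The fold changes of ddit3 and atf5b were 0.32 and 0.24 when srsf5a-morpholino replicate 1 was left out instead. In the control group too, replicate 1 lay above replicate 2 for 8 of the 9 genes, against 9930 of the 19917 genes tested.

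**Figure D3:**
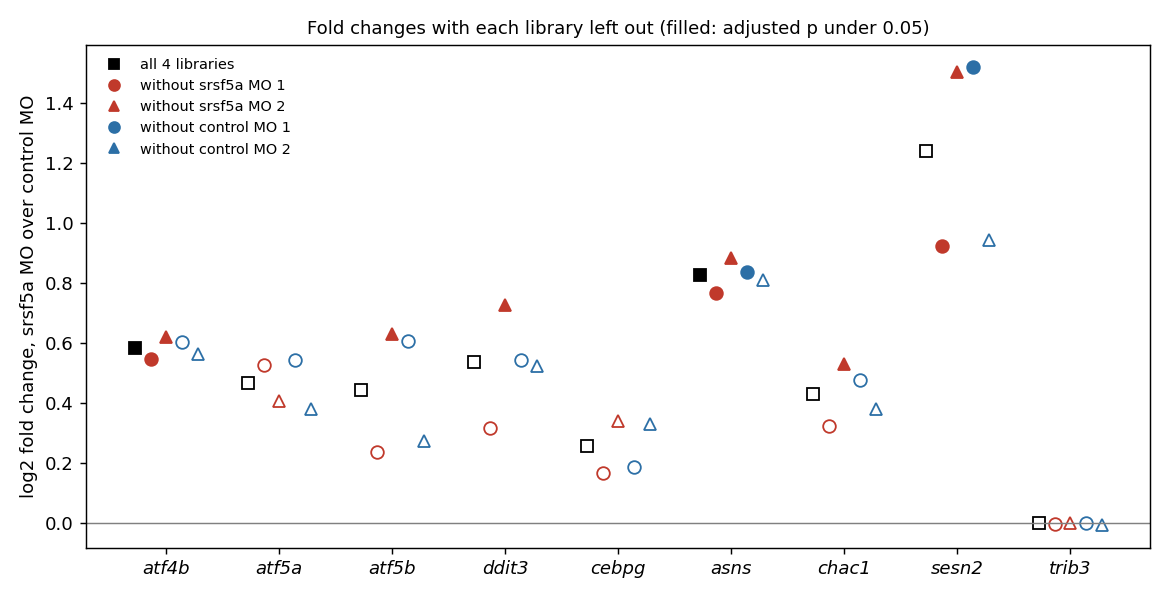
Log2 fold change, srsf5a morpholino over control (y axis), of each gene with all 4 libraries (squares) and with each library left out; filled symbols passed an adjusted p of 0.05. Values of asns stay between 0.77 and 0.88, whereas those of sesn2 range from 0.92 to 1.52.

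The 5 genes whose profile over the 4 libraries lay nearest to that of asns were mdm2, FST, krt18a.1, TRPV4 and cbsb. Likeness was the Euclidean distance between log2 CPM profiles, each centred on its own mean. The candidates were 13502 genes with a mean of at least 1 CPM and a symbol that is not a clone name. mdm2, which encodes the ubiquitin ligase of p53, was nearest at 0.05. cbsb, which encodes a cystathionine beta-synthase of the transsulfuration pathway, was the fifth at 0.06. cbsb had 121 and 110 CPM in the srsf5a-morpholino libraries and 62.5 and 64.3 CPM in the control libraries. The distance of atf4b was 0.24 and that of trib3 0.83. Without control replicate 2, where few genes of any kind were called, these genes lost their edgeR calls (0.75 to 0.88). They were picked for likeness to asns, whose call ended there too, so their loss adds nothing of its own. With 4 libraries such distances describe these samples and carry no test.

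Upstream of ATF4, genes were sought for eIF2 kinases, eIF2 and eIF2B subunits and the phosphatase subunits that reverse eIF2 phosphorylation. Those tested gave no call in the main edgeR test or in DESeq2. With the replicate number added to the edgeR model (the replicate block), 1 was called, higher. That model called 1582 of the 19917 genes tested in either direction. Of 17 symbols sought 13 were tested, with 0 higher and 0 lower in the main test, against 1.98% of all genes tested called. No row was found for eif2ak4, the GCN2 gene, or for the eIF2 subunit genes eif2s1a, eif2s1b and eif2s3. They were not analysed here. Of the 13, 4 were higher and 1 lower at an unadjusted p under 0.05, against 2086 higher and 2012 lower of 19917 genes tested. The median log2 fold change of the 13 was 0.21. Named by their high mean CPM are GCN1 (0.13 ± 0.11), which activates the amino acid-sensing kinase GCN2, and EIF2S2 (0.31 ± 0.09), the eIF2 beta subunit. EIF2AK3, which encodes the endoplasmic reticulum kinase PERK, had a log2 fold change of -0.22. EIF2AK3 and both phosphatase subunit genes, ppp1r15a and ppp1r15b, were picked once their values were known. ppp1r15a, the stress-inducible one in mammals, had 26.5 and 27.6 CPM in the srsf5a-morpholino libraries and 32.0 and 32.9 CPM in the control libraries (-0.26 ± 0.10, adjusted p = 0.212). ppp1r15b, the constitutive one, had 9.28 and 10.2 CPM in the srsf5a-morpholino libraries and 5.74 and 6.71 CPM in the control libraries (0.63 ± 0.16, adjusted p = 0.0923).

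Other genes that ATF4 is known to activate in mammals gave 3 calls, all higher, among 22 tested, against 1.22% of all genes tested. Of the 22, 18 lay above 0 with a median of 0.25, against 9969 of the 19917 genes tested. Of 36 symbols sought 21 had a row, and CTH had more than a single row. Symbols without a row, slc7a5, shmt2 and mthfd2 among them, were not analysed here. ATF3, a stress-induced bZIP factor, had 31.4 and 25.7 CPM in the srsf5a-morpholino libraries and 8.62 and 8.59 CPM in the control libraries (1.73 ± 0.14, adjusted p = 0.0117). SQSTM1, which encodes the autophagy receptor p62, had 71.3 and 57.5 CPM in the srsf5a-morpholino libraries and 35.3 and 32.6 CPM in the control libraries (0.93 ± 0.13, adjusted p = 0.0264). CEBPB, which encodes a C/EBP partner of ATF4, had 44.8 and 37.2 CPM in the srsf5a-morpholino libraries and 25.6 and 20.8 CPM in the control libraries (0.83 ± 0.15, adjusted p = 0.0425). Of the 22 genes, 13 had both srsf5a-morpholino libraries above both controls and 1 had both below. Over all 19917 genes tested these counts were 5203 and 5231. Genes of amino acid supply did not pass in edgeR. The transporter subunit gene slc3a2a had 0.58 ± 0.11 (adjusted p = 0.0519) and the serine synthesis gene PSAT1 had 0.50 ± 0.12 (adjusted p = 0.0794). PHGDH, the first enzyme of that pathway, had 0.24 ± 0.11 (adjusted p = 0.291). Other transporter genes of the list did not pass either, with SLC38A2 at -0.0028, slc7a11 at -0.17 and slc7a1a at 0.19. slc7a11 had only 10 to 17 counts in a library, at a mean of 0.640 CPM. The SE of slc7a11 was 0.54 and its confidence interval -1.44 to 1.11, so neither a rise nor a fall of it could be resolved. VLDLR of the same list lay lower, with 54.4 and 57.7 CPM in the srsf5a-morpholino libraries and 70.1 and 74.5 CPM in the control libraries. Its log2 fold change of -0.37 ± 0.09 did not pass in edgeR (adjusted p = 0.0940). These 6 genes of amino acid supply and VLDLR were picked with their values known. Without control replicate 2, where few genes of any kind were called, the calls of SQSTM1 (0.87) and CEBPB (0.68) ended and that of ATF3 remained (1.73). DESeq2 called 5 genes of the list, all higher, against 2.84% of the 17407 genes with an adjusted p. They were ATF3, SQSTM1, CEBPB, slc3a2a (DESeq2 adjusted p = 0.00315) and PSAT1 (DESeq2 adjusted p = 0.0114). The replicate block called 6 higher and 1 lower, where 1582 of the 19917 genes tested were called in either direction.

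Genes of cytosolic aminoacyl-tRNA synthetases, which charge tRNAs with amino acids and include ATF4 targets in mammals, all had log2 fold changes above 0. Of 21 symbols sought 16 were tested. Of the 16, 1 was called higher, against 1.22% of all genes tested, and 0 lower. At an unadjusted p under 0.05, 9 of the 16 were higher, against 10.5% of all genes tested. The symbols farsa, hars, kars1, lars1b and wars1 had no row and were not analysed here. All 16 had both srsf5a-morpholino libraries above both control libraries, against 26.1% of all genes tested, with log2 fold changes from 0.12 to 0.66 and a median of 0.26. MARS1, the methionyl-tRNA synthetase gene, was the call and had 81.6 and 83.0 CPM in the srsf5a-morpholino libraries and 56.2 and 58.2 CPM in the control libraries (0.52 ± 0.09, adjusted p = 0.0404). Leaving out either control library ended that call, with 0.49 in the absence of replicate 1 and 0.55 in the absence of replicate 2. Few genes of any kind were called in these settings. NARS1, which encodes the asparaginyl-tRNA synthetase and had the largest value of the list, is named after its values were seen. It had 238 and 255 CPM in the srsf5a-morpholino libraries and 176 and 138 CPM in the control libraries (0.66 ± 0.13, adjusted p = 0.0547). Under DESeq2 4 of the 16 were called, all higher, against 2.84% of the 17407 genes with an adjusted p. NARS1 was among these 4 (DESeq2 adjusted p = 3.16e-04).

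Genes of the other arms of the endoplasmic reticulum stress response stayed nearer to 0. Of 21 genes tested for chaperones, their folding and degradation partners and the sensors ATF6 and IRE1, 0 were called by edgeR and 0 by DESeq2. Over all genes edgeR called 1.98% of those tested, and DESeq2 called 956 of the 17407 with an adjusted p. Of the 21 genes, 0 had an unadjusted p under 0.05, against 2086 higher and 2012 lower of the 19917 genes tested. In the list 11 lay above 0 and 10 below, and the median was 0.01. CANX, the calnexin gene, had a log2 fold change of 0.12 ± 0.09 and HSP90B1, the GRP94 gene, one of -0.08 ± 0.11. XBP1, whose RNA is spliced by IRE1, had one of 0.06 ± 0.09 in total counts, which do not separate its spliced form, and was picked with its value known. Symbols without a row, HSPA5 among them, were not analysed here. The difference between this list and the 9 genes was not tested.

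**Figure D4:**
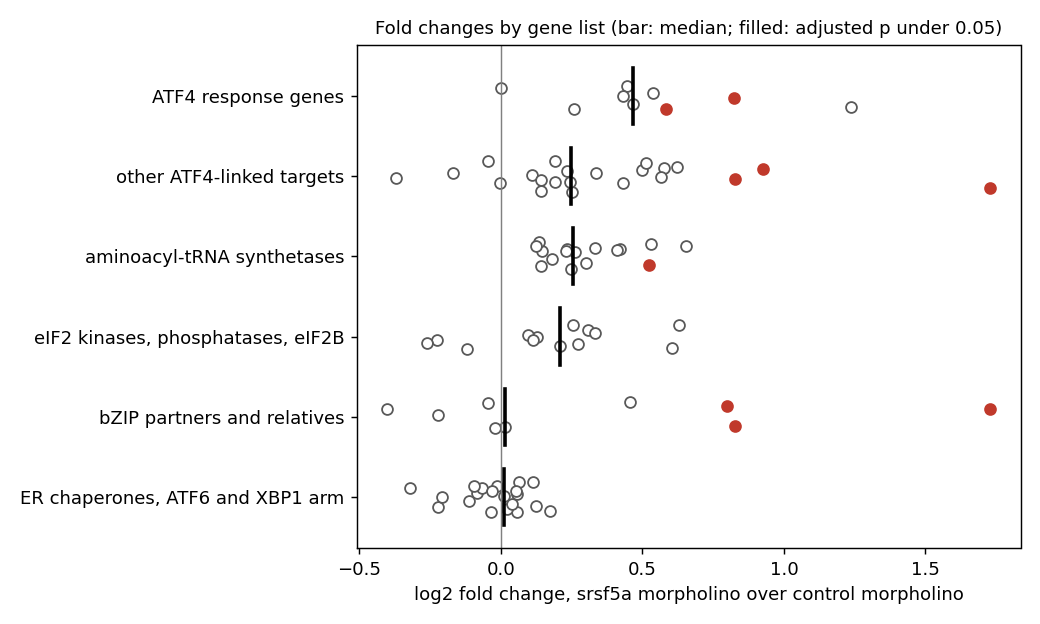
Log2 fold change, srsf5a morpholino over control (x axis), of each tested gene by list; vertical bars are list medians, filled red points passed an adjusted p of 0.05 and vertical scatter within a list has no meaning. The 9 ATF4 response genes have a median of 0.47 and the endoplasmic reticulum genes one of 0.01.

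The bZIP factors related to ATF4 or able to pair with it gave their calls in ATF3 and in C/EBP genes. Of 9 tested, 3 were higher, against 1.22% of all genes tested, and 0 lower: ATF3 and CEBPB, given above, and CEBPD, a C/EBP gene with 41.8 and 45.5 CPM in the srsf5a-morpholino libraries and 22.6 and 27.3 CPM in the control libraries (0.80 ± 0.13, adjusted p = 0.0356). CEBPA, the founding C/EBP gene, had a log2 fold change of -0.05 ± 0.10 and atf1, a CREB-family gene, one of 0.01 ± 0.09; both were chosen with their values known. The median of the list was 0.01 but moved with the genes and libraries included, to 0.24 with no filter, 0.23 with DESeq2 and between 0.07 and 0.26 with 1 library left out. Leaving out either control library likewise ended the call of CEBPD, at 0.67 in the absence of replicate 1 and 0.95 in the absence of replicate 2. Few genes of any kind were called in these settings.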

How the data were processed

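The submitters' processing notes name the Zv9 build and the tools TopHat, HTSeq, Picard and DESeq2. No version, annotation release or strand setting is given in the sources used here. Per-sample files, as deposited, hold read counts per Ensembl gene. The authors' deposited comparison table holds a signal column (mean normalized count), log2 fold changes, a score column (Wald statistic) and p-values, used only where named. Its direction was taken as srsf5a morpholino over control, since members higher in the counts have positive values there. Summary totals were kept out; reads with several alignments were 29.0% to 34.2% of those listed, and genes with close copies lost reads.

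The main test used edgeR 4.0.16 and R 4.3.3 (TMM, filterByExpr with minimum count 10 and minimum total 15, quasi-likelihood test, group as the only term, all 4 libraries). SE is the log2 fold change divided by the root of the F statistic. DESeq2 1.42.0 was an alternative, as were other scalings and filters, a replicate block and each library left out. The procedure was tested on simulated data. Replicates differed by more than sampling noise, with a chi-square per degree of freedom of 13.5 in the srsf5a-morpholino pair and 8.72 in the control pair. The labels call them biological replicates without stating separate pools of embryos, so the p-values reflect library-to-library spread that may be technical.

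Symbols were matched, ignoring case, to the supplied table, which names 20603 of the 32379 identifiers. The supplied RefSeq table pairs none of its entries with an Ensembl identifier and was not used. Members and lists were chosen with earlier results of these data known. Named genes are all members, up to 3 calls with the lowest p per list, otherwise the 1 or 2 most abundant genes, and the 5 genes nearest to asns; others are marked. Sequences were not used here.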

Additional observations from a re-analysis of the deposited data

How the results depend on the processing

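Counts of calls moved with the test and the libraries. Over all genes 395 were called; DESeq2 called 956, the replicate block 1582, and leaving out 1 library gave 33 to 1410. Of the 9 ATF4 response genes 2 were called; DESeq2 and the replicate block each called 4 (asns, atf4b, chac1 and sesn2), and leaving out 1 library gave 0 to 6. Of the other pathway lists together 5 distinct genes were called; DESeq2 called 10, the replicate block 17 (among them 1 of the eIF2 list, 2 relatives of the effector genes and 1 mitochondrial stress gene, where the unblocked edgeR test and DESeq2 called 0), and leaving out 1 library gave 1 to 12. Both edgeR calls held under the other scalings (DESeq2 size factors, upper-quartile, library totals alone) and filters (none, and 1 CPM in 2 libraries). Of the 9 genes, 8 stayed above 0 in all 11 alternatives. The value of trib3, never called, changed sign near 0, to -0.0024 with library totals alone and -0.0036 with DESeq2, and ranged from -0.0046 to 0.0028 with 1 library left out. Same-numbered libraries deviated together (correlation 0.50 over genes), but the labels do not say that the numbers pair them, and with 2 pairs this is only a hint. With 2 libraries per group, and 1 left when a library is dropped, a lone library is assumed to vary like the other group. The cause was not tested for these shifts.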

Other observations

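Glutathione synthesis and the relatives of the effector genes gave no edgeR or DESeq2 call among 8 tested, 2 of which were higher at an unadjusted p under 0.05, as were 10.5% of all genes tested. With the replicate block 2 were called, both higher. Over all 19917 genes tested edgeR called 1.98% without the block and 1582 genes with it. Named by their high mean CPM are SESN1, a sestrin gene that responds to p53 (-0.21 ± 0.12), and sesn3, another sestrin gene (0.40 ± 0.14, adjusted p = 0.165). SESN1 averaged 86.3 ± 13.3 CPM with the srsf5a morpholino and 99.6 ± 0.506 CPM with the control (SD, n = 2 each). GCLC, which encodes the catalytic subunit of the first enzyme of glutathione synthesis, had 51.9 and 51.4 CPM in the srsf5a-morpholino libraries and 40.9 and 37.5 CPM in the control libraries (0.40 ± 0.10, adjusted p = 0.0868); it is named after its values were seen.

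Of 13 mitochondrial stress genes sought, 5 were tested and edgeR and DESeq2 called none, while the replicate block called 1, higher. Over all 19917 genes tested edgeR called 1.98% without the block and 1582 genes with it. The chaperone genes HSPA9 (0.30 ± 0.10, adjusted p = 0.152) and HSPD1 (0.31 ± 0.09, adjusted p = 0.124) are named by their high mean CPM. Of the 5 genes, 4 were higher at an unadjusted p under 0.05, against 10.5% of all genes tested, and the same 4 had both libraries with the srsf5a morpholino above both controls, against 26.1%.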
